A study of Homo sapiens with 6 samples.

Results

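Antisense transcripts are RNAs annotated on the strand opposite another gene. The transcripts described here were the 154 well-expressed ones, out of 3347 of the antisense biotype and 30330 genes in all, chosen by a mean normalized read count of 75 or more over the 6 libraries. ZFAS1, SNHG7, SNHG10 and SNHG12 passed that level and were left out by name; they are known as hosts of small nucleolar RNAs. All 6 libraries came from NCI-H1975, a human lung adenocarcinoma line with mutant EGFR. The 3 resistant libraries were made from H1975/OSI, a single derived line selected over 7 months under osimertinib (OSI), a kinase inhibitor of EGFR, at steps of 0.03, 0.1, 0.3, 1 and finally 3 µM. The 3 control libraries carry the same cell line name and no treatment. The labels do not say whether osimertinib was present at harvest, nor whether a group's 3 libraries were grown separately; the p-values below thus reflect library-to-library spread, which may be technical.

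An antisense RNA can overlap its sense gene with each start inside the other gene (head-to-head), from beyond the sense gene's end (tail-to-tail), from inside it, or across it. Head-to-head sets no limit on the distance between the starts. Many antisense RNAs arise from divergent promoters, at which transcription starts in both directions, and some are primary transcripts of miRNAs. Others have been described as acting on the chromatin or the RNA of the gene they overlap. The files do not state the strand setting of the counting, so where exons of the 2 genes overlap, reads of the antisense and the sense gene cannot be told apart.

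Each library held between 15174126 and 16588479 reads counted on genes. Resistant library 1 stood apart from its group: the chi-square per gene was 10.8 against resistant library 2 and 12.1 against library 3, compared with 2.32 between those 2 and 2.43 to 3.66 between controls. The counts of calls, and results for transcripts in which it is named as extreme, are therefore also given without it. Of 9 measured lung adenocarcinoma markers, 8 had a mean of at least 10, with a summed normalized read count of 40681 to 47451 in the resistant and 58953 to 62262 in the control libraries. Of 4 measured fibroblast markers, only PDGFRB reached 10 (list sum 128 to 170 in the resistant and 80.0 to 129 in the control libraries), while LUM and THY1 stayed under it. Of 4 measured blood and endothelial markers, CDH5 and PECAM1 reached 10 (list sum 562 to 751 resistant, 293 to 330 control), and CD68 and VWF stayed under it. The part of these shifts in the antisense results was not tested.

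Of the 154 transcripts, 134 overlapped a protein-coding gene on the other strand, and the gene with the longest overlap was taken as the sense partner. TSPEAR was shared by 2 transcripts, which left 133 distinct partners. By arrangement, 49 transcripts were head-to-head with the partner, 39 tail-to-tail, 32 lay within it, 14 spanned it and 20 overlapped no protein-coding gene on the opposite strand. Over all arrangements, the starts of transcript and partner lay within 1000 bases in 32 pairs.

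The sequences below come from RefSeq (GRCh38.p14) and were chosen because the results turn on their transcripts. Among all the members, 3 contain a listed miRNA on the same strand: MIR23AHG, GABPB1-AS1 and DLEU2. MIR23AHG and DLEU2 changed in opposite directions, so the main products of their clusters are shown, 5′ to 3′, with the seed (bases 2 to 8) in capitals. The products of miR-15a and miR-16 share 1 seed, whereas the 3 products from MIR23AHG each have their own. The libraries measure the host transcripts and not the mature miRNAs.

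hsa-miR-23a-3p: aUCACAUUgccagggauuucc
hsa-miR-27a-3p: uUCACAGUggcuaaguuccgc
hsa-miR-24-3p: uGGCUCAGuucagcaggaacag
hsa-miR-15a-5p: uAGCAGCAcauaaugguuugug
hsa-miR-16-5p: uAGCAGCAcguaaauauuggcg

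Promoters are shown for 6 members described below that rose or fell and whose RefSeq start lay within 145 bases of the GENCODE start, as the strand transcribed, from 250 bases before the start to 50 after it. The table matched 91 of the 154 members by symbol. Capitals mark matches, on either strand, to 7 searched motifs: the GC box (GGGCGG), the CCAAT box (CCAAT), the TATA box (TATAAA), the AP-1 site (TGACTCA), the cyclic AMP response element (TGACGTCA), an ETS site (CCGGAAG) and the antioxidant response element (TGACNNNGC).

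TGFB2-AS1, chr1:218345629-218345928, minus strand: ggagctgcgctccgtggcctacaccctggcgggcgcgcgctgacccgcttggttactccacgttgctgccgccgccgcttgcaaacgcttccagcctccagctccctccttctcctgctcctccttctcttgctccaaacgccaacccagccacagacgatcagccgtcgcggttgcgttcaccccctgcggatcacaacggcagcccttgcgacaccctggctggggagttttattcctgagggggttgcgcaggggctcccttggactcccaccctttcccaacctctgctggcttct
KRT7-AS, chr12:52247399-52247698, minus strand: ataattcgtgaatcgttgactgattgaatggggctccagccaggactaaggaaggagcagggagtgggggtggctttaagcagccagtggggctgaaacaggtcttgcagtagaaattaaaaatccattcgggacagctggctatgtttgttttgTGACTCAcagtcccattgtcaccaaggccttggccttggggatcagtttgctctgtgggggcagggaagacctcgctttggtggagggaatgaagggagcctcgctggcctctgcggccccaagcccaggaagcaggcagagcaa
KIF9-AS1, chr3:47164120-47164419, plus strand: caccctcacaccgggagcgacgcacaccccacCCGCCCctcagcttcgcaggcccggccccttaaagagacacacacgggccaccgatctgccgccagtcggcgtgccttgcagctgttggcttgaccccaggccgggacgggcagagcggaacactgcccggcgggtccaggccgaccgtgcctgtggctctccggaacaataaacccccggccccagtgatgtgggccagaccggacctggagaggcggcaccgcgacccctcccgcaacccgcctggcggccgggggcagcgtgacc
LUCAT1, chr5:91314353-91314652, minus strand: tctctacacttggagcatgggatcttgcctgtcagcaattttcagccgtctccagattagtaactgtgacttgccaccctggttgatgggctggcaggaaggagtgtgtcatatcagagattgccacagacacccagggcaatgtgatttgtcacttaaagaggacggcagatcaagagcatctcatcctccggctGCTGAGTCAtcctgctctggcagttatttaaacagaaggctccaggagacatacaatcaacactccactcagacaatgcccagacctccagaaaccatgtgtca
VPS9D1-AS1, chr16:89711606-89711905, plus strand: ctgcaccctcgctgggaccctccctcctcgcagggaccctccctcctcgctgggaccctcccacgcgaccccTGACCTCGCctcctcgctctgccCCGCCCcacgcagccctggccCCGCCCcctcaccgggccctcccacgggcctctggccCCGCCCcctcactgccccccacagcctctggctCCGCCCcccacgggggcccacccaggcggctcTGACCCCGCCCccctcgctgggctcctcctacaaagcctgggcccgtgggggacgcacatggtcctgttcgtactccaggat
STARD4-AS1, chr5:111511976-111512275, plus strand: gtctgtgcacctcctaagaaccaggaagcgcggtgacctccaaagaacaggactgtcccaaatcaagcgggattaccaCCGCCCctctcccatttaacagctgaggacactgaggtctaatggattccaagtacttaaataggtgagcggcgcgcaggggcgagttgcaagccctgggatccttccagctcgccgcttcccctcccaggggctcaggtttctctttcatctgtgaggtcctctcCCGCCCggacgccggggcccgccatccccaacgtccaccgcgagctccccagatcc

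The LUCAT1 window holds 1 AP-1 match and 1 antioxidant response element match, which share most of their bases, and the KRT7-AS window 1 AP-1 match. VPS9D1-AS1 has 5 GC boxes and 2 antioxidant response element matches, 1 of which overlaps a GC box, and TGFB2-AS1 has no match to any of the 7. Over the member promoters matched, 59.3% held a GC box, against 44.9% of the 34943 promoters in the table, and 6.59% held an AP-1 site, against 4.96%. The antioxidant response element letters were in 19.8% of member promoters and 13.3% of all, and the TATA box in 8.79% and 11.6%. These matches describe letters only.

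Levels of the 154 transcripts ran from 75.1 to 2869 normalized reads (mean over 6 libraries), with a median of 123, and their exon lengths from 321 to 91667 bases, with a median of 3414. AFAP1-AS1, LUCAT1, FGD5-AS1, MIR23AHG and PSMA3-AS1 had the highest means. AFAP1-AS1, a long noncoding RNA known for its high level in several carcinomas, stood at 1733, 2196 and 2324 in the resistant libraries 1 to 3 and at 3690, 3817 and 3456 in the controls. All 3 resistant values were thus below all 3 controls, a fall of 0.82 on the log2 scale (SE 0.09, limma-trend adjusted p = 4.9e-07). LUCAT1, an RNA known to respond to oxidative stress, was at 1909, 1360 and 1164 in the resistant libraries and at 3439, 3254 and 3701 in the controls. Its groups did not overlap either, and it fell by 1.26 (SE 0.20, adjusted p = 0.0044).

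FGD5-AS1 was level: its resistant values of 1689, 1719 and 1702 lay inside the control range, which ran from 1665 to 1820 (log2 change -0.02, SE 0.07, adjusted p = 0.82). PSMA3-AS1, antisense to a proteasome subunit gene, also overlapped between groups, at 943 to 1024 in the resistant and 874 to 1135 in the control libraries (adjusted p = 0.98). MIR23AHG, the host of the miR-23a, miR-27a and miR-24-2 cluster, moved the other way from AFAP1-AS1. It was at 2143, 2023 and 1966 in the resistant libraries and at 1085, 1023 and 1130 in the controls, a rise of 0.92 (SE 0.07, adjusted p = 1.2e-10).

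**Figure D1:**
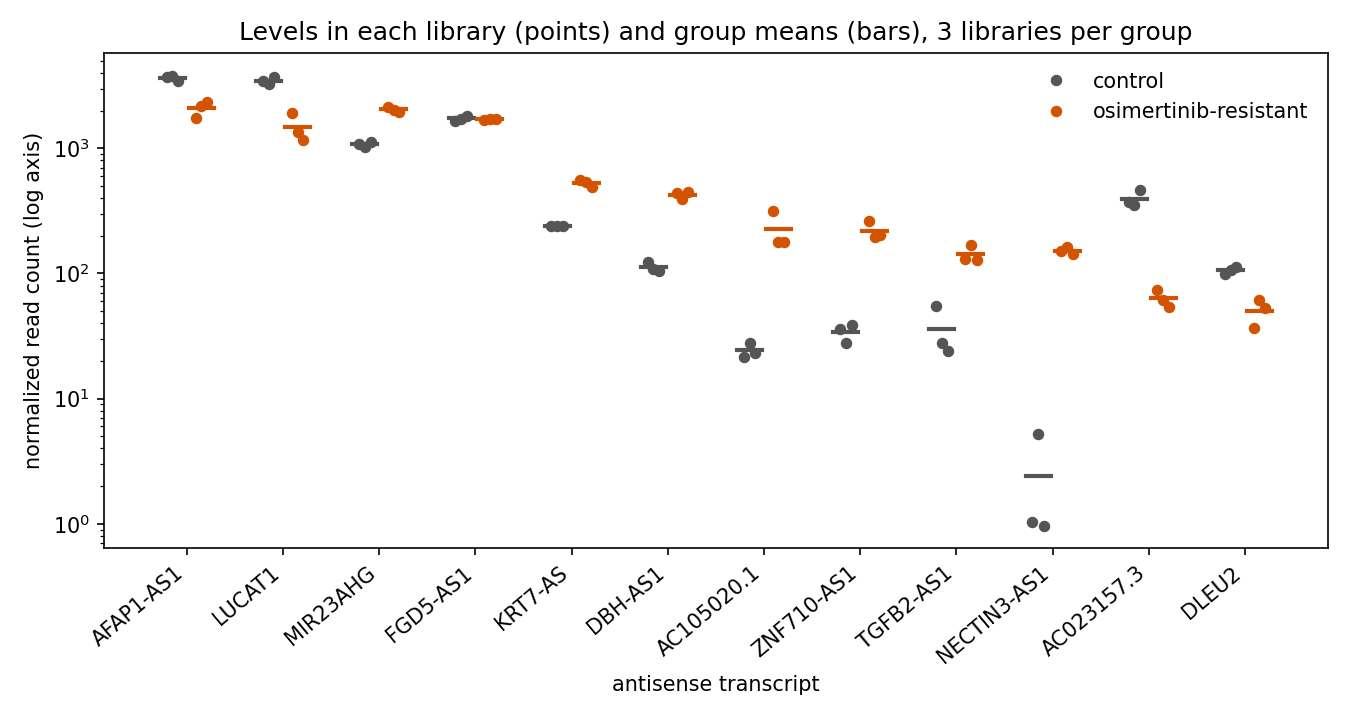
Normalized read count (log axis) of 12 antisense transcripts in each library; points are libraries, bars are group means, 3 libraries per group. FGD5-AS1 overlaps between the groups and the other 11 do not; NECTIN3-AS1 is at 0.964 to 5.20 in the controls and 142 to 162 in the resistant libraries.

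All antisense transcripts together took 0.411% ± 0.002 of reads in the resistant libraries and 0.390% ± 0.010 in the controls (SD, n = 3 each), and these ranges did not overlap. For the 154 members the shares were 0.216% ± 0.001 and 0.218% ± 0.007, and they did overlap. The 5 highest members held 25.1% of member reads in the resistant libraries and 30.8% in the controls. Sense intronic transcripts, a class that can reflect unspliced RNA, took 0.0416% ± 0.0010 of reads in the resistant and 0.0353% ± 0.0024 in the control libraries, and mitochondrial transcripts 5.53% ± 0.18 and 6.88% ± 0.44; their part in the results was not tested.

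Of the 154 members, 43 were called higher and 46 lower in the resistant line at an adjusted p under 0.05 (limma-trend on log2(normalized read count + 1), adjusted over all 24560 genes tested), and 65 were not called. Over all genes tested, 41.5% were called, 20.4% higher and 21.1% lower. Among the 2514 antisense transcripts tested it was 19.2% (10.7% higher, 8.55% lower), among protein-coding genes 54.9% (25.7% higher, 29.1% lower), and among other genes with a mean of 75 or more 62.6% (28.2% higher, 34.5% lower). The 57.8% called among the members lay a little under the 62.6% of other genes that reached the same minimum. That set has no upper limit and was not matched to the members by level. The median log2 change of the members was -0.01, and that of all genes 0.01. Values of the groups did not overlap for 106 members (68.8%), against 50.1% of all genes. Since the level was averaged over both groups, 21 members reached 75 only in the resistant group and 17 only in the control group, and these were members through their higher group alone. Of the 116 that reached it in both, 26 were higher and 32 lower. Without resistant library 1, 40 members were higher and 49 lower, and 40 and 43 of these were calls also made with it. When each library was instead centred on its median gene, which shifted all changes by -0.13, 32 were higher and 62 lower; of these calls 34.0% were higher, near the 35.8% of all calls over all genes under that centring.

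**Figure D2:**
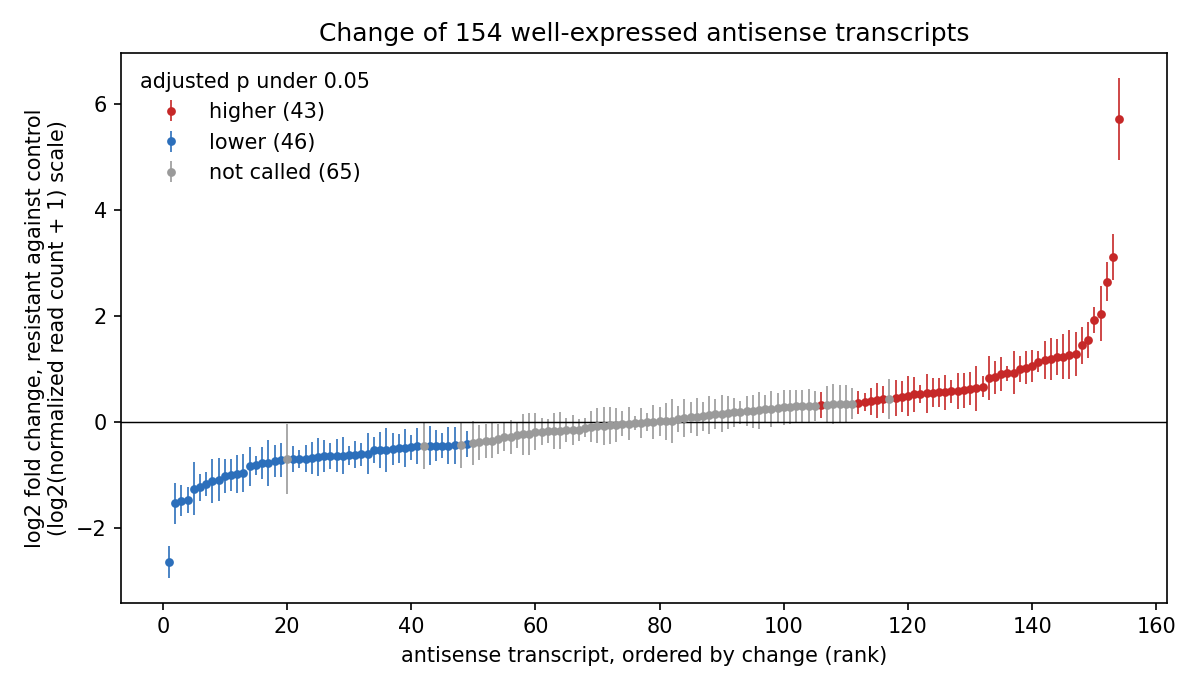
Log2 fold change (resistant against control) with its 95% confidence interval for the 154 antisense transcripts in rank order, coloured by call. The changes run from -2.63 to 5.71, with 46 transcripts called lower, 43 higher and 65 not called. For the 116 at 75 or more in both groups they run from -1.48 to 1.92.

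A change of 2-fold or more was called for 17 members upward (11.0%) and 11 downward (7.14%), where 7.86% and 5.72% of all genes had one (13.6% in either direction). The members that reached the level through 1 group alone carried much of this: of the 116 at 75 or more in both groups, 6 rose (5.17%) and 7 fell (6.03%) by 2-fold or more. Over these 116 the log2 changes ran from -1.48 to 1.92. Each larger rise or fall given below was thus of a member through its higher group alone. NECTIN3-AS1 had the largest rise. It lies on chromosome 3 (GRCh38, chr3:110893708-111071553, minus strand), head-to-head with NECTIN3, a cell adhesion gene, without overlap of exons. It was at 152, 162 and 142 in the resistant libraries and at 1.03, 5.20 and 0.964 in the controls, which is 468 reads against 7. The ratio per library read was 68.7 (95% exact interval 33.1 to 172, counting error only), and the log2 change 5.71 (SE 0.37, adjusted p = 1.9e-11). NECTIN3 itself rose by far less, from 261 to 313 in the controls to 428 to 511 in the resistant libraries (log2 change 0.72, SE 0.10, adjusted p = 3.5e-06). With a mean of 77.1, NECTIN3-AS1 was among the 3 transcripts just inside the level, with AL445524.1 (76.8) and AC135178.3 (75.1); ZMIZ1-AS1 (74.7), TFAP2A-AS2 (74.1) and AL157838.1 (73.8) lay just outside.

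AC105020.1 lies within CSPG4, the gene of a cell surface proteoglycan, and shares no exon bases with it. It was at 317, 177 and 180 in the resistant libraries and at 21.6, 28.1 and 23.1 in the controls (log2 change 3.11, SE 0.21, adjusted p = 2.4e-11). The resistant libraries were all higher, library 1 most of all, and without it the log2 change was 2.84 (adjusted p = 1.0e-13). ZNF710-AS1, which overlaps the 3′ side of the zinc finger gene ZNF710, was at 262, 195 and 202 against 35.9, 28.1 and 38.6 (log2 change 2.65, SE 0.18, adjusted p = 1.9e-11). Neither sense gene rose: CSPG4 fell by 0.43 (adjusted p = 0.0011) and ZNF710 had a log2 change of 0.08 (adjusted p = 0.66).

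TGFB2-AS1 overlaps no protein-coding gene, and its start lies 557 bases from that of TGFB2, a TGF-beta ligand, on the other strand. It was at 131, 169 and 127 in the resistant libraries and at 55.4, 28.1 and 24.1 in the controls, a rise of 2.04 (SE 0.25, adjusted p = 1.6e-06). TGFB2 had a mean of 2548 ± 88 in the resistant and 700 ± 19 in the control libraries (SD, n = 3 each), a rise of 1.86 (adjusted p = 3.3e-16). Neither gene overlapped between groups, and the difference between the 2 rises was not tested.

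DBH-AS1 and FLG-AS1 also rose with their sense genes. DBH-AS1 lies within DBH, the gene of dopamine beta-hydroxylase, and was at 440, 392 and 445 against 123, 108 and 105 (log2 change 1.92, SE 0.12, adjusted p = 3.5e-12). DBH went from 52.0 to 60.3 in the controls to 186 to 224 (log2 change 1.90, adjusted p = 4.1e-10). FLG-AS1 spans FLG, the gene of the skin barrier protein filaggrin. It was at 140, 149 and 170 against 54.4, 49.9 and 50.1 (log2 change 1.55, adjusted p = 3.6e-08), and FLG rose by 1.40 (adjusted p = 9.6e-08). AL591845.1, head-to-head with EVA1B, rose by 1.45, and PRKAG2-AS1, head-to-head with the gene of an AMP-activated kinase subunit, by 1.28 (adjusted p = 2.1e-07 and 1.4e-05). These complete the 8 largest rises. NECTIN3-AS1, AC105020.1, ZNF710-AS1, TGFB2-AS1 and FLG-AS1 among them had control values under 75.

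AC023157.3 had the largest fall. It starts 57 bases from the start of AMN1 and was at 73.4, 61.8 and 54.3 in the resistant libraries and at 370, 354 and 467 in the controls (log2 change -2.63, SE 0.15, adjusted p = 5.8e-13). AMN1 was at 60.0 to 78.5 and 71.9 to 102, which overlapped (log2 change -0.34, adjusted p = 0.15). AC010761.1, within the ribosomal protein gene RPL23A, fell by 1.53, and EXOC3-AS1, which starts 2 bases from the exocyst subunit gene EXOC3, by 1.48 (adjusted p = 3.3e-07 and 6.5e-09). Both sense genes fell less, RPL23A by 0.45 and EXOC3 by 0.44.

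AL365181.3 fell by 1.47 together with BCAN, the gene of the matrix proteoglycan brevican, which fell by 1.39 from low levels of 50.1 to 80.1 in the controls. PRR11-AS1 fell by 1.23 and PRR11, a proliferation-linked gene, by 1.38. VPS9D1-AS1 was at 172, 193 and 218 against 460, 440 and 417, a fall of 1.18 (SE 0.11, adjusted p = 4.2e-09). Its sense gene VPS9D1 had a log2 change of 0.14 (adjusted p = 0.29). LUCAT1 and AC135178.3, which fell by 1.11 (adjusted p = 6.7e-05), were the other 2 of the 8 largest falls.

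The remaining 35 rises ran from 1.27 down to 0.32 on the log2 scale, and the remaining 38 falls from -1.09 to -0.41. Groups did not overlap for 42 of the 43 rises and 45 of the 46 falls. The 65 transcripts not called had log2 changes from -0.70 to 0.43. For 64 of them the 95% interval lay within a change of 1 in either direction, and for 19 the groups did not overlap.

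DLEU2, the host of miR-15a and miR-16-1, was at 36.7, 60.9 and 53.3 in the resistant libraries and at 99.6, 106 and 112 in the controls; it was singled out after its values were seen. It fell by 1.09 (SE 0.20, adjusted p = 7.1e-05), with resistant library 1 the lowest of the 6, and by 0.88 without that library (adjusted p = 0.00010). KCNQ1OT1, the imprinted transcript inside KCNQ1, was level, at 226 to 253 in the resistant and 227 to 271 in the control libraries (log2 change -0.03, SE 0.11, adjusted p = 0.85); it too was picked after its values were seen. KRT7-AS, chosen in the same way, lies within the keratin gene KRT7. It was at 557, 539 and 486 against 238, 239 and 240, a rise of 1.14 (adjusted p = 8.9e-10), while KRT7 was at 11963 to 14099 and 12757 to 13758, with a log2 change of -0.06 (adjusted p = 0.47). Without resistant library 1, KRT7 had a log2 change of -0.14 and was called (adjusted p = 0.010).

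Of the 133 sense partners, 131 could be tested; 36 were higher, 37 lower and 58 not called, or 55.7% called, near the 54.9% of protein-coding genes. With median centring 26 were higher and 51 lower, so that 33.8% of the calls were higher, against 35.8% over all genes. Without resistant library 1, 39 were higher and 40 lower. Both genes were tested in 132 pairs, and both were called in 41 of them (31.1%), close to the product of the 2 genes' own shares called (58.3% and 56.1%, product 32.7%). Of these, 19 pairs were higher together, 14 were lower together and 8 moved in opposite directions. In 36 pairs only the antisense transcript was called, in 33 only the sense gene, and in 22 neither. Without resistant library 1, both were called in 47 pairs: 19 higher together, 15 lower together and 13 in opposite directions, and these 13 included all 8. Across the 132 pairs the 2 log2 changes had a Pearson r of 0.36 and a Spearman rho of 0.38, and across the 2025 other tested antisense and sense pairs r was 0.39 and rho 0.32. The antisense changes were also set against the neighbour median, the median change of other tested protein-coding genes with midpoints within 1 Mb. There r was 0.18 and rho 0.33 over the 132 pairs. Whether these differ from the values for the sense gene was not tested. Each value is a description over genes that share the same 6 libraries.

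The part of shared reads in these values was not tested, but pairs can be described by exon overlap. In 104 pairs exons overlapped, and r was 0.45 and rho 0.42. In the 28 pairs without exon overlap both were 0.28. Against the neighbour median, r was 0.31 and rho 0.30 in pairs with exon overlap, and -0.05 and 0.27 in those without. In those 28, 12 pairs had both genes called, 5 higher together, 3 lower together and 4 in opposite directions. Most members shared only a small part of their exons: of the 134 with a partner, 58 overlapped by up to 10% of their exon bases, 28 by 10 to 25%, 18 by 25 to 50%, 1 (ZNF337-AS1, named after its value was seen) by more, and 29 by none. Among all antisense transcripts, 268 overlapped by more than 50%, and 1 of these (0.373%) reached the level of a member, against 12.1% of the 479 that overlapped by up to 10%. The share was 4.93% for an overlap of 10 to 25% and 3.88% for 25 to 50%. Of the 1120 with a partner but no exon overlap it was 2.59%, so the share did not rise steadily as overlap fell.

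By arrangement, 14 of the 16 head-to-head pairs with both genes called moved in the same direction, as did 5 of 9 tail-to-tail pairs, 11 of 13 pairs with the transcript inside the sense gene and 3 of 3 spanning it. Exons overlapped in 42 of all 49 head-to-head pairs, 33 of 39 tail-to-tail, 21 of 32 inside and 9 of 14 spanning. The part of shared reads in these directions was not tested. Per kilobase of exon, the antisense transcript was above its sense gene in both groups in 46 pairs and below it in both groups in 74, and the order differed between groups in 12. The median ratio of the antisense to the sense level per kilobase was 0.620 in the controls. KIF9-AS1 was one that turned: per kilobase its ratio to KIF9 was 2.53 in the resistant and 0.826 in the control libraries. GAS6-AS1 turned the other way, with a ratio to GAS6 of 0.558 in the resistant libraries and 1.45 in the controls.

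**Figure D3:**
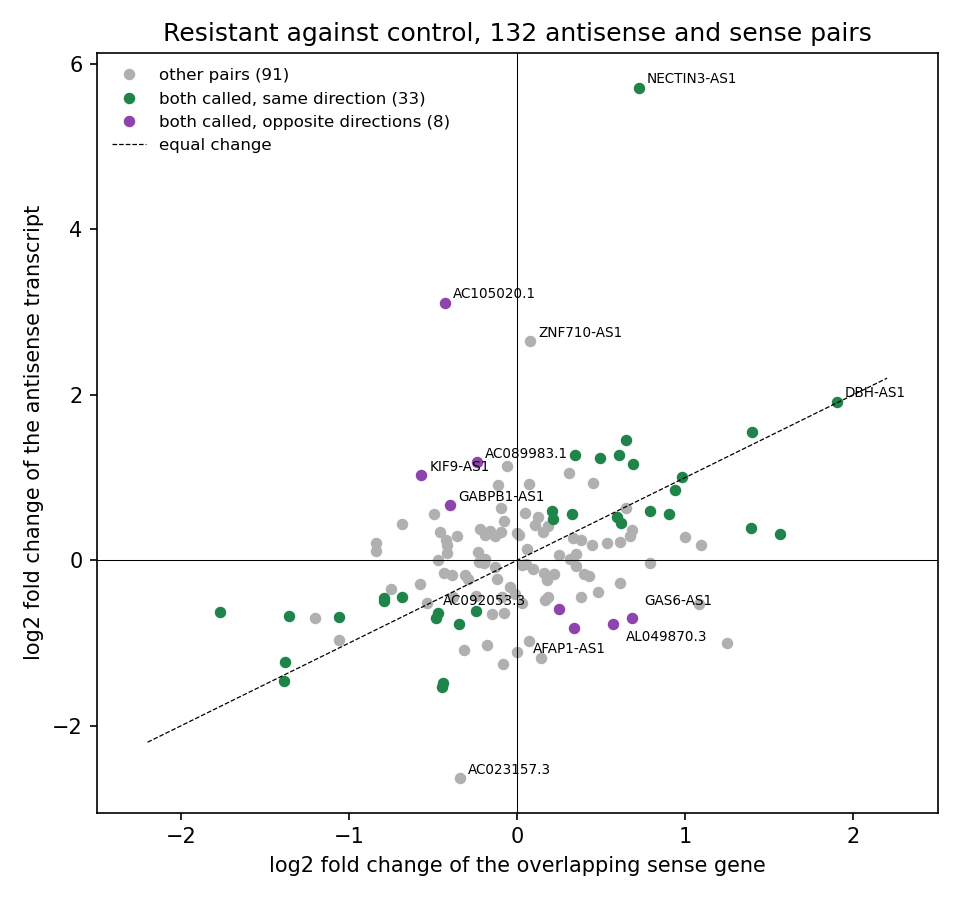
Log2 fold change of each antisense transcript (vertical) against that of its overlapping sense gene (horizontal), resistant against control, for 132 pairs; the dashed line marks equal change. The 33 pairs called in the same direction lie in 2 quadrants, the 8 called in opposite directions in the other two, and NECTIN3-AS1, AC105020.1 and ZNF710-AS1 lie far above the line.

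The 8 pairs called in opposite directions were 4 in which the antisense transcript rose and the sense gene fell and 4 with the reverse. The former were GABPB1-AS1, KIF9-AS1, AC089983.1 within TXNRD1, and AC105020.1 within CSPG4. GABPB1-AS1, head-to-head with the gene of a GA-binding protein subunit, was at 729, 641 and 750 in the resistant libraries and at 472, 387 and 482 in the controls (log2 change 0.66, SE 0.09, adjusted p = 3.7e-06). GABPB1 was at 287, 247 and 322 against 375, 388 and 363, a fall of 0.40 (SE 0.11, adjusted p = 0.0035). KIF9-AS1 rose by 1.03 while the kinesin gene KIF9 fell by 0.57. AC089983.1 was at 224, 136 and 136 against 57.5, 75.9 and 79.0 (log2 change 1.18), with resistant library 1 the highest. Without that library its rise was 0.94 (adjusted p = 3.1e-05). Its sense gene TXNRD1, the thioredoxin reductase gene, fell by 0.24 (adjusted p = 0.0014). With quantile normalization TXNRD1 had a log2 change of -0.07 and was not called (adjusted p = 0.38).

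The reverse was seen for AFAP1-AS1, GAS6-AS1, AL049870.3 and AC092053.3. GAS6-AS1 was at 556, 629 and 542 in the resistant libraries and at 983, 962 and 852 in the controls, a fall of 0.70 (SE 0.08, adjusted p = 2.9e-07). GAS6, the ligand of the TAM receptor kinases such as AXL, was at 928, 852 and 815 against 521, 550 and 545, a rise of 0.68 (SE 0.08, adjusted p = 1.8e-07). Neither gene overlapped between groups. AFAP1, an actin filament gene, rose by 0.34 (adjusted p = 0.00088). AL049870.3 fell by 0.78 while C14orf28 rose by 0.57. The pair of AC092053.3, named after its values were seen (fall of 0.59, adjusted p = 0.011) and the transcription factor gene CSRNP1 (rise of 0.25, adjusted p = 0.025) did not hold when single libraries were left out: without control replicate 1 both lost their calls (adjusted p = 0.077 and 0.074). In limma with the variance not modelled on level, 6 of the 8 sense genes lost their calls (adjusted p from 0.053 for CSPG4 to 0.22 for CSRNP1), and KIF9 and GAS6 were still called.

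Whether the antisense and the sense gene of a pair changed by different amounts was tested on the difference of their log2 values in each library. Of the 132 pairs, 32 had a higher and 23 a lower antisense-to-sense ratio in the resistant line, or 41.7%, against 11.2% of all 2157 pairs tested (6.35% higher, 4.82% lower), most of which have an antisense transcript below the level of the members. These counts depended on the model. With the variance not modelled on level, limma called 3 higher and 1 lower: NECTIN3-AS1, AC105020.1, ZNF710-AS1 and AC023157.3. Each of these transcripts reached the level in 1 group alone. An interaction model in edgeR on the reads recovered from the values, chosen after the data were seen, called 17 higher and 16 lower, and 17 and 14 of these were shared with the main test. Without resistant library 1, 28 were higher and 22 lower.

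The largest differences were +4.99 for NECTIN3-AS1 (95% interval 4.28 to 5.70), +3.55 for AC105020.1 (3.11 to 3.98), +2.57 for ZNF710-AS1 (2.17 to 2.98) and -2.29 for AC023157.3 (-2.62 to -1.96). They were followed by KIF9-AS1 (+1.60), AC089983.1 (+1.43), GAS6-AS1 (-1.38) and AL049870.3 (-1.35). The last 4 were called by the main test and by edgeR, and missed the threshold in limma with the variance not modelled on level (adjusted p = 0.074, 0.11, 0.091 and 0.10). AFAP1-AS1 had a difference of -1.16 (95% interval -1.79 to -0.53) that was not called (adjusted p = 0.055). It was called in 8 of 15 alternatives: without resistant library 1 (-0.93, adjusted p = 2.2e-20), 2 (adjusted p = 0.00014) or 3 (adjusted p = 0.0074), by edgeR (-1.16, adjusted p = 8.2e-06), and in limma with a pseudocount of 5, a minimum of 5, a replicate block or quantile normalization (adjusted p from 6.1e-17 to 0.049). KRT7-AS had a difference of +1.20, MIR23AHG of +0.85 from ZSWIM4, and LUCAT1 of -1.17 from ADGRV1, each called by the main test and by edgeR. In limma with the variance not modelled on level none of them was called (adjusted p = 0.11, 0.25 and 0.12). That of MIR23AHG was also not called with a pseudocount of 0.1 (adjusted p = 0.095).

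In other pairs the difference lay near 0. It was +0.02 for DBH-AS1 (95% interval -0.29 to 0.32), -0.09 for LIF-AS2 (-0.45 to 0.28) and +0.15 for PRR11-AS1 (-0.16 to 0.46). LIF-AS2, named after its values were seen, was at 172, 152 and 151 in the resistant libraries and at 82.1, 102 and 80.0 in the controls. LIF, a cytokine of the interleukin 6 family, was at 5517, 4558 and 4136 against 2528, 2500 and 2351, a rise of 0.94 (adjusted p = 1.5e-08). The next 4 pairs, whose differences did not lie near 0, were also named after their values were seen. RNASEH1-DT fell by 0.68 and RNASEH1, the gene of an enzyme that cuts RNA in RNA-DNA hybrids, by 1.36, a difference of +0.68 (adjusted p = 0.0044) that was not called by edgeR (adjusted p = 0.11) or by limma with the variance not modelled on level (adjusted p = 0.29). PAPLN-AS1 was at 307 to 326 in the resistant and 254 to 307 in the control libraries (log2 change 0.18, adjusted p = 0.17), while PAPLN, the gene of papilin, rose by 1.10 (adjusted p = 7.7e-11). SH3BP5-AS1 was at 211, 214 and 254 against 181, 170 and 165 (log2 change 0.39, adjusted p = 0.012), and SH3BP5, known as a binding partner of the kinase BTK, was at 291, 178 and 200 against 86.3, 91.4 and 71.3, a rise of 1.39. Without resistant library 1, SH3BP5 rose by 1.18 (adjusted p = 8.1e-08). The antisense call was lost without resistant replicate 3 (adjusted p = 0.082) and with median centring (adjusted p = 0.11). CCDC144NL-AS1 was at 490, 419 and 406 against 687, 688 and 653, a fall of 0.63, and its low-level sense gene CCDC144NL fell by 1.77, from 123 to 136 in the controls to 27.5 to 50.3.

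**Figure D4:**
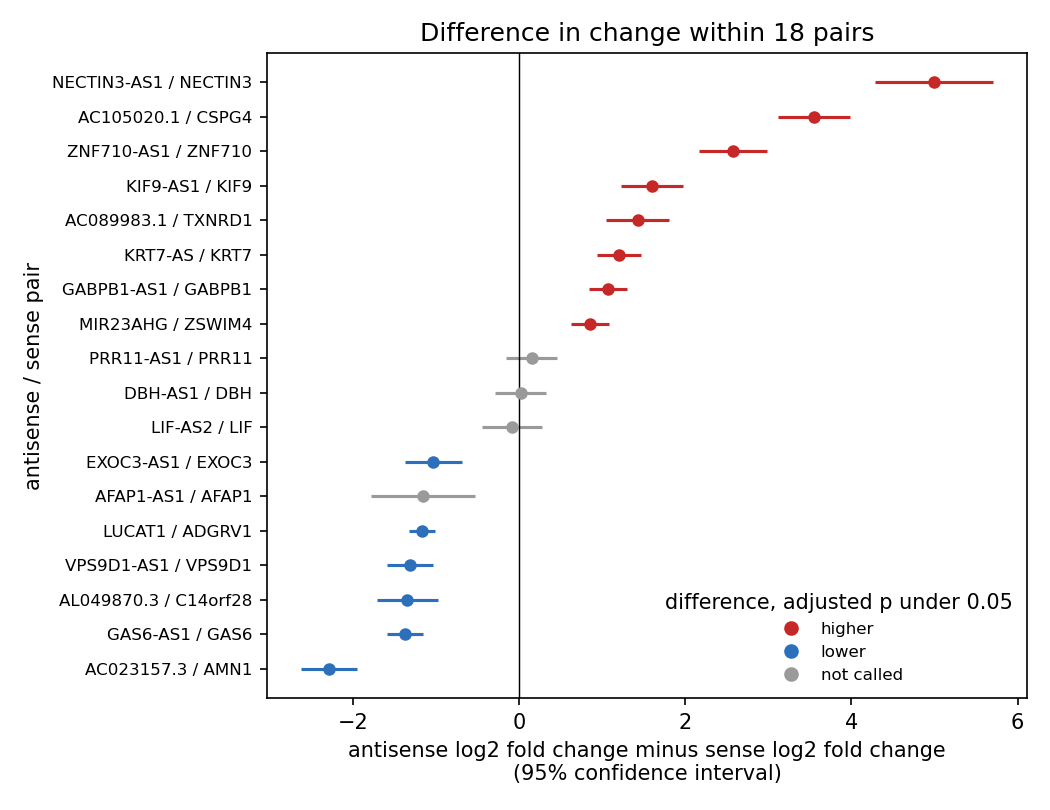
Antisense log2 fold change minus sense log2 fold change, with 95% confidence intervals, for 18 pairs. The values run from -2.29 (AC023157.3) to 4.99 (NECTIN3-AS1); DBH-AS1, LIF-AS2 and PRR11-AS1 lie near 0, and the interval of AFAP1-AS1 is wide and the pair was not called.

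For 64 of the 154 members, a protein-coding gene on the other strand starts within 1000 bases of the antisense start, and in 32 of these the 2 genes do not overlap or the longest overlap is with another gene. Both were called in 24 pairs (37.5%), close to the product of the 2 shares called (57.8% and 60.9%, product 35.2%): 8 were higher together, 12 lower together and 4 in opposite directions. Leaving out resistant library 1 gave 28 pairs, 8 higher together, 13 lower together and 7 in opposite directions, and the 7 included all 4. In 13 pairs only the antisense transcript was called, in 15 only the coding gene and in 12 neither. Across the 64 pairs r was 0.52 and rho 0.44, as a description over genes of the same libraries. The further pairs given here and in the next paragraph, apart from that of GABPB1-AS1, were named after their values were seen. After TGFB2-AS1 and TGFB2, the largest joint rises included SAP30-DT (1.27) with SAP30 (0.61), a histone deacetylase complex gene that was not called in limma with the variance not modelled on level (adjusted p = 0.069), and AL391422.4 (1.16) with PXDC1 (0.69). SAP30-DT was at 179, 84.9 and 102 against 50.3, 41.6 and 51.1, with resistant library 1 the highest, and without that library its rise was 0.95 (adjusted p = 0.00022). Without it SAP30 rose by 0.40 (adjusted p = 0.00021), AL391422.4 by 0.96 (adjusted p = 4.6e-06) and PXDC1 by 0.61 (adjusted p = 1.0e-08). OTUD6B-AS1, which starts 7 bases from the deubiquitinase gene OTUD6B, fell by 0.62 and OTUD6B by 0.45.

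The 4 pairs that moved in opposite directions were GABPB1-AS1 and GABPB1, TRMT61A-DT and TRMT61A, THUMPD3-AS1 and SETD5, and MHENCR and GMEB2. TRMT61A-DT was at 165, 106 and 84.8 in the resistant libraries and at 67.8, 57.2 and 67.5 in the controls, a rise of 0.83 (adjusted p = 0.0018; 0.56 without resistant library 1, adjusted p = 0.016), and TRMT61A, a tRNA methyltransferase gene, fell by 0.41 (adjusted p = 0.00092). TRMT61A-DT lost its call in limma with the variance not modelled on level (adjusted p = 0.074). THUMPD3-AS1 fell by 0.70 and SETD5 rose by 0.62, whereas the overlapping gene THUMPD3 fell by 0.49. MHENCR fell by 0.52 and GMEB2 rose by 0.37; the call of MHENCR was lost without control replicate 1 or resistant replicate 3 (adjusted p = 0.083 and 0.061). WASL-DT starts 1 base from WASL, an actin assembly gene, and fell by 0.71 (adjusted p = 0.00053), while WASL had a log2 change of 0.15 (adjusted p = 0.099).

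**Figure D5:**
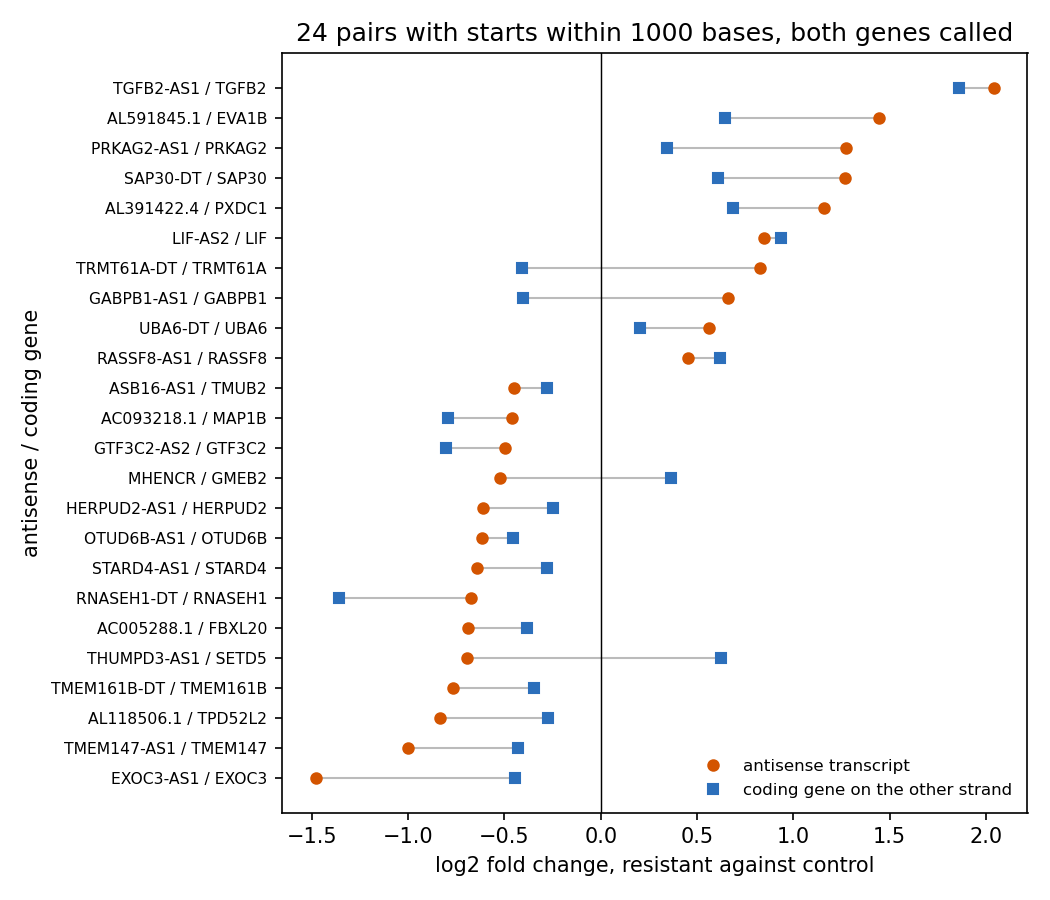
Log2 fold change (resistant against control) of antisense transcripts (circles) and of the protein-coding genes that start within 1000 bases on the other strand (squares), for the 24 pairs with both called. In 20 pairs the circle and the square lie on the same side of 0, and in 4 they lie on opposite sides.

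A list of 25 antisense transcripts with described roles held 10 members. Of the list, 21 were tested, and 6 were higher and 4 lower, with a median log2 change of 0.18 against 0.01 for all genes. The share called was 47.6%, against 41.5% of all genes, 19.2% of antisense transcripts and 62.6% of other genes with a mean of 75 or more. Among those called, WRAP53, OIP5-AS1 and BACE1-AS passed that level but are not of the antisense biotype, so the 19.2% does not cover them. Leaving out resistant library 1 gave 7 higher and 4 lower. Of the 10 members, GABPB1-AS1, TGFB2-AS1 and THAP9-AS1 rose, AFAP1-AS1 and STARD4-AS1 fell, and 5 were not called. THAP9-AS1 was at 982, 960 and 1046 against 688, 744 and 880 (log2 change 0.38, adjusted p = 0.00086); the call was lost in limma with the variance not modelled on level (adjusted p = 0.070). STARD4-AS1 was at 159, 152 and 161 against 271, 243 and 226, a fall of 0.64 (adjusted p = 0.00012). STARD4, a sterol transport gene that starts 364 bases away, fell by 0.28 (adjusted p = 0.0068). FGD5-AS1, PSMA3-AS1, SLC25A25-AS1 (log2 change 0.18), ZEB1-AS1 (-0.05) and MCM3AP-AS1 (0.10) were not called. ZEB1, the gene of a repressor of epithelial genes, had a log2 change of 0.05 (adjusted p = 0.65).

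The factors that act on such RNAs were described with 2 lists. Of 22 genes of nuclear RNA surveillance, chiefly the exosome, which degrades many antisense RNAs, 14 were lower and 1 higher, or 68.2% called, against 41.5% of all genes and 62.6% of genes with a mean of 75 or more, of which 34.5% were lower. The list's median log2 change was -0.29. MTREX, the helicase of the nuclear exosome, was at 768, 837 and 850 in the resistant libraries and at 1222, 1273 and 1324 in the controls (log2 change -0.64, adjusted p = 1.3e-07). EXOSC5, an exosome subunit, fell by 0.88 (adjusted p = 1.5e-07), and RBM7, which guides the exosome to nuclear targets, rose by 0.78 (adjusted p = 1.5e-06). In limma with the variance not modelled on level, 9 of the 22 were lower.

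Of 16 genes that bind, process or signal in response to double-stranded RNA, 10 were lower and 1 higher. The share called was 68.8%, and the list's median log2 change was -0.48. Of all genes, 21.1% were lower, and of those with a mean of 75 or more, 34.5%. The counts of both lists were the same without resistant library 1. DHX9, a helicase that unwinds RNA duplexes, was at 1778, 2181 and 2359 against 4473, 4437 and 4474 (log2 change -1.09, SE 0.08, adjusted p = 4.4e-10). ILF2 fell by 0.88 (adjusted p = 2.1e-11), and ADARB1, an adenosine deaminase acting on RNA, rose by 0.38 (adjusted p = 0.0020). With quantile normalization 2 of the 16 were higher. DICER1 was not called (log2 change -0.10, adjusted p = 0.31). DICER1-AS1, named after its values were seen, rose from 98.3 to 109 in the controls to 131 to 193 (log2 change 0.63, adjusted p = 0.0017). The difference between the 2 genes lost its call without resistant library 1 (+0.52, adjusted p = 0.061). It was also lost in limma with the variance not modelled on level (adjusted p = 0.31).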

How the data were processed

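RNA was sequenced from 3 osimertinib-resistant and 3 control libraries of NCI-H1975 cells. The authors deposited, for each library, a table of normalized read counts per gene (signal: gene counts divided by a size factor), made on GRCh38 as the submitters' processing notes name it. Which aligner, counter and strand setting were used is not given in the sources used here. Value columns are named by library and matched the labels. Each library's values were whole multiples of 1 step for 100% of genes (within 0.001 reads), so reads were recovered for alternative count tests.

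Gene models, overlaps and exon lengths came from GENCODE 29, and symbols from a gene name table. Log2(value + 1) was tested with limma-trend (limma 3.58.1, R 4.3.3, robust), resistant against control, on the 24560 genes with a value of 1 or more in at least 3 libraries, with p-values adjusted by Benjamini-Hochberg and called under 0.05. All 154 members passed it. The same model was applied to the antisense minus sense difference of 2157 pairs, and tools were tested on simulated data. Alternatives used edgeR 4.0.16, DESeq2 1.42.0, other pseudocounts, filters, scalings and levels, and each library left out.

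Named genes were the 8 largest rises and falls among called members without group overlap, the 5 highest levels, the 8 largest pair differences among called pairs, members of a list with described roles, the 3 on either side of the level, and the 2 smallest adjusted p in each direction of 2 lists; further ones are marked in the text. Members and lists were chosen with earlier results of these data known. Values of some genes are not reported here. Depth was 15174126 to 16588479 reads, so a gene with a value near 1 rests on about 1 read.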

Additional observations from a re-analysis of the deposited data

How the results depend on the processing

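Of 130 results recomputed under every alternative that applied, 67 kept their direction and their side of the threshold in all. The counts that moved most were those of the pair test. With the variance not modelled on level, limma gave 3 higher and 1 lower ratio, 23 higher sense partners and 9 lower surveillance genes; the cause was not tested. The edgeR interaction, added after seeing the data, gave 17 higher ratios. Quantile normalization gave 2 higher double-stranded RNA factors. Other levels changed the counts by construction: a mean of 50 or more gave 68 higher members and 58 higher partners, a mean of 100 or more gave 30 lower members and 15 lower ratios, and a mean of 75 in both groups gave 26 higher members. The pairs without exon overlap held 8 higher and 10 lower partners and 10 higher and 4 lower ratios.

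Replicate numbers did not pair the libraries (r of same-numbered deviations between -0.0015 and 0.0067). With the replicate block, 42 members were higher and 47 lower, and 29 ratios were higher and 23 lower.

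Direction turned only for values that were not called in the main test or in that alternative. Under quantile normalization the log2 change was 0.0473 for FGD5-AS1, 0.0657 for PSMA3-AS1 and 0.0134 for KRT7, and the difference of AL365181.3 from its sense gene 0.0443. Under median centring it was -0.0374 for MCM3AP-AS1, -0.0855 for ZEB1, -0.0590 for ZNF710 and -0.0663 for ZSWIM4. Sense genes not called in the main test but called in an alternative included AMN1 (-0.48, adjusted p = 0.043) and DICER1 (-0.23, adjusted p = 0.017) with median centring, and VPS9D1 (0.24, adjusted p = 0.041) without resistant replicate 1. KRBA2, the partner of AC135178.3, was at 0.0342 with DESeq2, 0.0339 with edgeR and 0.00126 with a pseudocount of 5. With single libraries left out, FGD5-AS1 ran from -0.0497 to 0.0141, KCNQ1OT1 ran from -0.0976 to 0.0314, PSMA3-AS1 ran from -0.0852 to 0.104, ZEB1-AS1 ran from -0.173 to 0.0255, KCNQ1 ran from -0.404 to 0.00310, KRBA2 ran from -0.206 to 0.276, ZNF710 ran from -0.0481 to 0.162, ZSWIM4 ran from -0.0686 to 0.179, AL365181.3 (difference from its sense gene) ran from -0.229 to 0.103, DBH-AS1 (difference from its sense gene) ran from -0.0768 to 0.117, FLG-AS1 (difference from its sense gene) ran from -0.0145 to 0.253, KCNQ1OT1 (difference from its sense gene) ran from -0.0558 to 0.307 and LIF-AS2 (difference from its sense gene) ran from -0.153 to 0.00874.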
